A study of Bos taurus with 12 samples.

Results

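The complement, coagulation and fibrinolysis genes described here are 37 genes of the cascades that tag foreign or dying cells, clot blood and dissolve clots, chosen by their symbols in the annotation of the array. Probes were found for 36 of the 37, against 17727 genes with a symbol on the whole array, and they lay in 43 transcripts with 108 probes. TFPI was not found under its symbol. The tissue was intercaruncular endometrium, biopsied from the uterine horn on the side of the corpus luteum on Day 15 of a synchronised estrous cycle. The females were Holstein cattle cloned by somatic cell nuclear transfer from a single donor cow, so that old and young females share a nuclear genotype. The 4 old females (OF) were 13 to 14 years old and had never calved, and the 4 young females (YF) were 4 to 5 years old and had calved before, so that age and parity cannot be told apart. Arrays of 4 contemporary cows were deposited too, whose age, parity and genotype the labels do not give, and 1 of them, animal 1111, is left out of the comparisons because its label states that the authors left it out for a divergent phenotype.

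Complement is started when C1q binds antibody or cell surfaces, when lectins bind sugars, or when C3 turns over by itself, and all 3 routes meet at the cleavage of C3 and end in a pore made by the terminal components. Clotting starts when tissue factor meets blood and ends in fibrin, which plasmin dissolves after tissue-type or urokinase-type activators have released it from plasminogen. In the endometrium, local complement and protease genes are expressed, while the liver supplies many of the plasma proteins. Host cells carry membrane regulators that keep complement from attacking them.

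Each array carried the RNA of 1 animal in 1 colour, and the value of a gene is the log2 of its processed intensity minus the 75th percentile of its array. A value of 0 thus marks that percentile, which lay between an intensity of 967.5 in OF 2258 and 1596.7 in contemporary cow 1129, between 71.6% and 74.9% of the spots on an array were well above background, and 0 were saturated. The number of arrays limits the precision. Of the 36 members with probes, 34 were well above background in every animal compared. C5AR1 was so in 3 of 4 YF and in all 4 OF, and C6 in 1 YF, 3 OF and 1 contemporary cow, so that C6 was not tested. Values are listed below in the order YF 1069, 1070, 1072 and 1127, then OF 0233, 0234, 0245 and 2258, and differences are OF minus YF on the log2 scale with the standard error from limma.

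The comparison of OF with YF asks whether the endometrium of old females carries another level of these RNAs on the day when a conceptus would elongate. No member differed at an adjusted p of 0.05 in limma, where 0 of 35 were called beside 0 of 19755 transcripts (0%), and the smallest adjusted p among the members was 0.999. Before adjustment 2 of the 35, CD59 and C5AR1, were under 0.05 in limma, beside 478 of all transcripts (2.42%), and C5AR1 passed the background filter only through OF, where it was higher. All 4 OF lay on 1 side of all 4 YF for 2 members, CD59 and PLAT, beside 302 of all transcripts (1.53%), and both lay lower in OF, as 118 of all transcripts did (0.597%), while 0 members lay higher beside 184 of all transcripts (0.931%). FCROS, the rank test named in the study's methods, which takes a share of the ranks and gives no adjusted p, called 6 of 36 members beside 1300 of 26323 transcripts (4.94%). MASP1, C5 and C7 were called higher in OF (2.88% of all transcripts) and CD59, PLAT and SERPINE2 lower (2.06%). The median difference of the 35 members was -0.13 with 14 higher and 21 lower, beside a median of 0.01 with 51.7% higher over all transcripts tested, and it was -0.02 without OF 2258. The median size of a difference, whatever its sign, was 0.25 in the members and 0.15 in all transcripts. The members also varied more between animals of the same group. Their median SD was 0.38 in YF and 0.47 in OF, beside 0.28 and 0.32 over all transcripts tested.

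**Figure D1:**
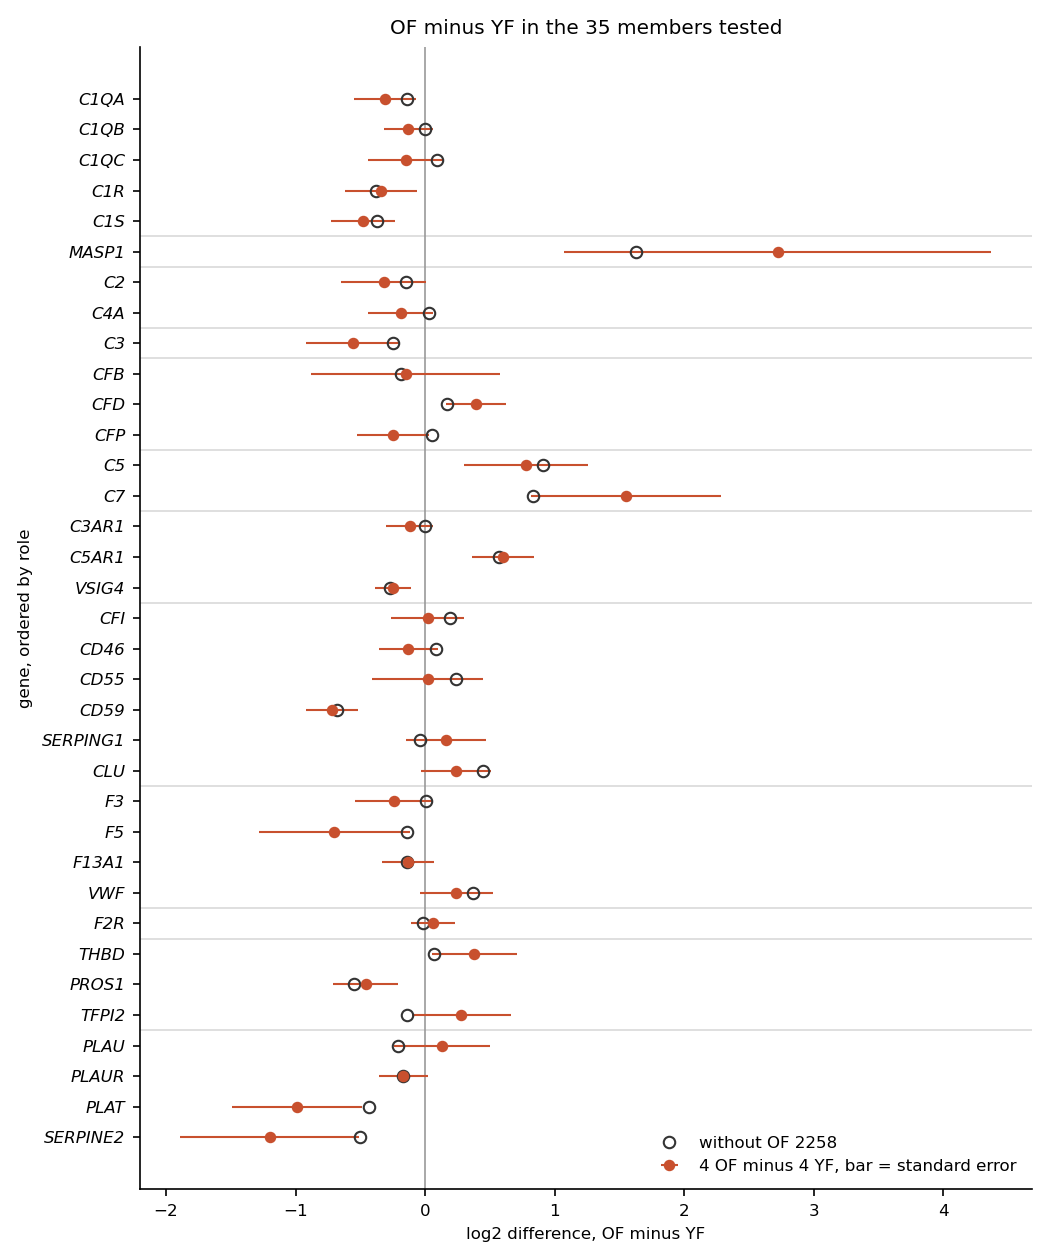
Difference between OF and YF on the log2 scale for the 35 members tested, ordered by role from complement initiation at the top to fibrinolysis at the bottom; filled points are means of 4 OF minus means of 4 YF, bars are limma's standard errors, and open points are the differences without OF 2258. MASP1 (2.72) and C7 (1.55) lie farthest to the right and SERPINE2 (-1.20) and PLAT (-0.99) farthest to the left, and in all 4 the open point lies nearer to 0.

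One animal stood apart before any member is considered. OF 2258 held the highest or the lowest of the 8 values for 21 of the 35 members (60%) and for 51.3% of all transcripts tested. Its biopsy was high in genes of smooth muscle, and where in the biopsy their RNA came from was not measured. Of the 12 genes on that list 11 were found by symbol, all 11 were above background on all arrays, and the most abundant was ACTA2, the actin of smooth muscle. Their summed signal, in multiples of the 75th percentile, was 34, 24.6, 67.2 and 24.5 in YF and 25.8, 373, 55.3 and 1060 in OF. The contemporary cows 1068, 1128, 1129 and 1111 had sums of 49.4, 29.5, 32 and 49.6, so that OF 0234 and OF 2258 were the 2 animals above all others.

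Genes of epithelium, which lines the uterus and its glands, went the other way in the same animal. All 8 genes of that list had probes above background, EPCAM was the most abundant, and their summed signal was 20.8, 75.8, 59.4 and 72.7 in YF and 65.9, 41, 82.6 and 10.3 in OF. OF 2258 was the lowest of the 12 animals and YF 1069 the second lowest, with contemporary sums of 47.8, 61.3, 48.9 and 66.6. Because each array measured a whole biopsy, fewer cells of a type and less RNA per cell cannot be told apart in any value given here.

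The classical pathway starts with C1q, built from the chains C1QA, C1QB and C1QC, and with the proteases C1R and C1S that it carries. All 5 genes had a lower mean in OF, with differences from -0.48 (C1S) to -0.13 (C1QB) and standard errors from 0.19 to 0.29, so that none stood more than 2 standard errors from 0. C1QA lay at -1.39, -0.70, -1.08 and -0.91 in YF and at -0.82, -1.46, -1.22 and -1.81 in OF. OF 2258 was the lowest and OF 0233 within the range of YF, and without OF 2258 the difference was -0.14 for C1QA, 0.00 for C1QB and 0.09 for C1QC. A second transcript named C1QA had a difference of the other sign, 0.39, with OF 0233 at -1.09 and the other 7 animals between -3.61 and -2.87.

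The 3 chains of C1q went together from animal to animal, also within groups. Over 12 animals Pearson's r was 0.95 for C1QA with C1QB (permutation p = 1e-05, the smallest that 100000 resamples give, adjusted p = 4.5e-05 over 9 relations computed, Spearman's rho 0.96), 0.95 for C1QA with C1QC (permutation p = 2e-05, adjusted p = 6e-05, rho 0.96) and 0.97 for C1QB with C1QC (permutation p = 1e-05, adjusted p = 4.5e-05, rho 0.98). Without the 2 animals farthest from the median, r was 0.90, 0.88 and 0.94, and within slide 2, which held 8 of the arrays, it was 0.96, 0.97 and 0.98. As deviations from the group means it was 0.93, 0.96 and 0.97. Contemporary cow 1128 was the highest for each chain and OF 2258 the lowest. C1q is made mainly by macrophages, and C1QA followed the mean of 9 macrophage genes less closely, with r = 0.60 (permutation p = 0.0392, adjusted p = 0.0588, rho 0.70 with adjusted permutation p = 0.0217), which was 0.71 without the 2 farthest animals, 0.58 within slide 2 and 0.38 as deviations from the group means (permutation p = 0.216). MRC1 was not found by symbol, CD163 was well above background on 1 array, CSF1R was the most abundant of the 9, and their summed signal was 3.71, 3.77, 3.83 and 3.09 in YF, 3.65, 3.48, 3.36 and 3.71 in OF and 3.41, 4.08, 4.97 and 4.10 in the contemporary cows. In OF 2258, lowest for all 3 chains, single macrophage genes disagreed, with CD68 at -1.60, where the other OF and YF were at no more than -2.64, and CD14 at -1.06, the lowest of the 8. Their part in the level of C1q was not tested.

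**Figure D2:**
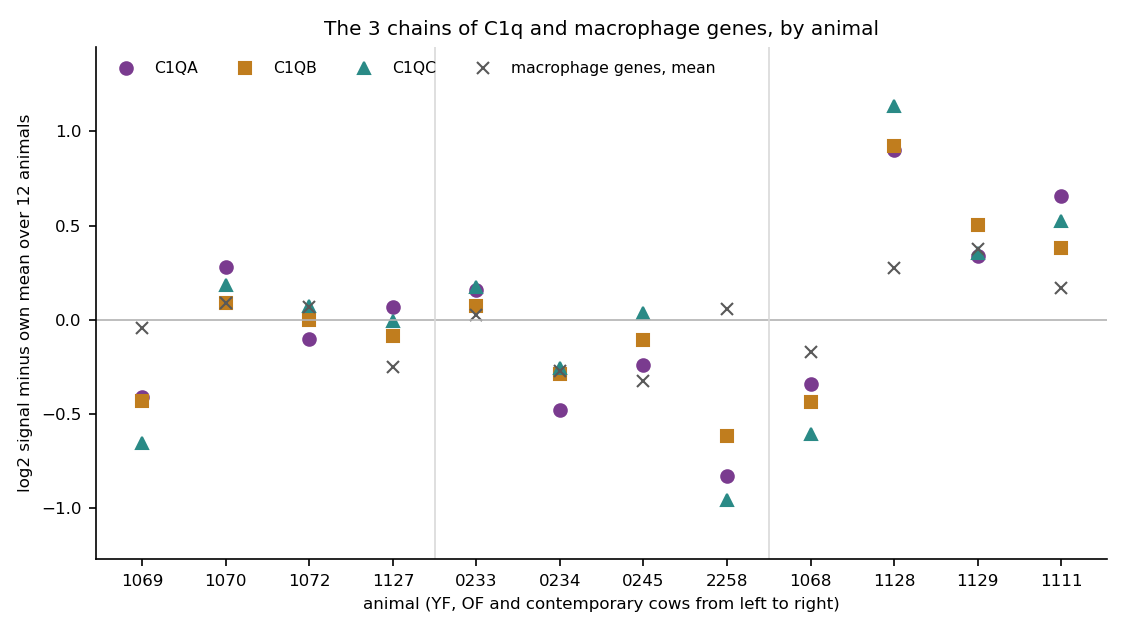
Log2 signal of C1QA, C1QB and C1QC and the mean of 9 macrophage genes in each of 12 animals, each minus its own mean over the animals. The 3 chains lie close to each other in every animal and are lowest in OF 2258 and highest in contemporary cow 1128, whereas the crosses for macrophage genes span from -2.88 to -2.18 before their mean is taken off.

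C1R lay at 0.22, -0.37, -0.57 and -1.06 in YF and at -0.89, -0.43, -1.17 and -0.65 in OF, and C1S at 5.45, 4.83, 4.78 and 4.48 in YF and at 4.57, 4.79, 4.19 and 4.08 in OF. For both proteases YF 1069 was the highest and the groups overlapped, and without it the differences of -0.34 and -0.48 were -0.12 and -0.29. Their r over 12 animals was 0.79 (permutation p = 0.00304, adjusted p = 0.00547, rho 0.77) and 0.54 without the 2 farthest animals (permutation p = 0.108), so the relation rests in part on those animals. It was 0.73 within slide 2 (exact permutation p = 0.0384, adjusted p = 0.0691), where it did not pass, and 0.81 as deviations from the group means. YF 1069 was also the highest of the 12 animals in the 7 stromal genes, of which COL3A1 was the most abundant, with summed signals of 287, 153, 159 and 133 in YF, 116, 167, 121 and 187 in OF and 187, 211, 225 and 138 in the contemporary cows. The part of stroma in the level of C1R and C1S was not tested. The 2 probes of C1R gave differences of -0.21 and -0.46, with means over 12 animals of -2.57 and 1.38. The first, which is the dimmer, is printed to show 1 stretch of the transcript that was read.
C1R probe 1: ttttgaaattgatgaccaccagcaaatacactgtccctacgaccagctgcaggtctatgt

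MASP1, a protease that starts the lectin pathway, had the widest range of any member. It lay at -3.57, -5.95, -3.44 and -7.06 in YF and at -6.75, -0.21, -3.17 and 1.0 in OF. OF 0234 and OF 2258 were far above all YF, OF 0245 was just above the highest YF, OF 0233 was near the lowest YF and the groups overlapped. The difference was 2.72 with a standard error of 1.65 (exact permutation p = 0.2), and its 2 probes gave 2.70 and 2.75. OF 0234 and OF 2258 were also the 2 animals high in smooth muscle genes. Without OF 2258 the difference was 1.63, and without both it was 0.05, while the part of smooth muscle in it was not tested.

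C4A and C2 supply the parts of the classical C3 convertase, and C3 is the component on which all routes act. C4A lay at 2.88, 2.70, 2.90 and 2.54 in YF and at 3.06, 2.67, 2.63 and 1.88 in OF, a difference of -0.19 (standard error 0.25) that was 0.03 without OF 2258, and C2 differed by -0.32 (standard error 0.33), with -0.63 and -0.01 from its 2 probes and -0.15 without OF 2258. C3 lay at 0.80, 0.86, 1.12 and 0.28 in YF and at 0.96, 0.57, 0.01 and -0.71 in OF, a difference of -0.56 with a standard error of 0.36 (exact permutation p = 0.229). OF 0245 and OF 2258 were lower than all YF, the other 2 OF were within their range, and the difference was -0.25 without OF 2258. The 2 probes of C3 gave -0.59 and -0.53, and they are not independent readings of the transcript, since they overlap by the 22 bases in capitals, the end of one and the start of the other.
C3 probe 1: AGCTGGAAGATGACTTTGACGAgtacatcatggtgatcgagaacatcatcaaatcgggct
C3 probe 2: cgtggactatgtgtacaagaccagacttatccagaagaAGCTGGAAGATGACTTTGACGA

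The alternative pathway amplifies C3 cleavage through factor B (CFB), factor D (CFD) and properdin (CFP). CFB lay at 0.84, 2.64, 0.36 and -1.35 in YF and at -0.17, 1.06, 0.41 and 0.60 in OF, so that YF ranged widely and OF lay within their range. Its difference of -0.15 had no stable sign, and was 0.75 within slide 2, 0.52 without YF 1070 and 0.07 without OF 0233. CFD lay at 1.28, 1.38, 1.41 and 0.96 in YF and at 1.45, 1.53, 1.31 and 2.29 in OF, a difference of 0.39 with a standard error of 0.23, and 0.17 without OF 2258. CFP differed by -0.25, a sign that turned under normexp background correction, with the brightest probe and without OF 2258, and only OF 2258, at -4.95, lay far from the other 7, which were between -4.02 and -3.65.

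The terminal components C5, C6 and C7 begin the pore that complement leaves in a membrane. C7 lay at -3.33, -4.62, -3.21 and -4.06 in YF and at -3.17, -2.16, -3.59 and -0.08 in OF. OF 2258 was the highest and OF 0234 the second, and OF 0245 was within the range of YF. The difference was 1.55 with a standard error of 0.73 (exact permutation p = 0.114), or 2.94-fold, and it was 0.83 without OF 2258 and 0.42 without OF 0234 as well. C5 lay at -6.52, -5.90, -4.23 and -5.75 in YF and at -5.12, -4.05, -4.91 and -5.20 in OF, a difference of 0.78 with a standard error of 0.48 (exact permutation p = 0.229). All OF were above 3 of the YF, and YF 1072 was above 3 of the OF. For C5 the difference did not come from OF 2258, without which it was 0.91, but it was 0.47 without YF 1069 and 0.37 under normexp, and its 2 probes gave 1.19 and 0.36. C6 was well above background in 1 of 4 YF and 3 of 4 OF, with means of -7.97 in YF and -7.40 in OF. Across 12 animals C7 had r = 0.20 with the mean of the stromal genes (permutation p = 0.541, adjusted p = 0.541, rho 0.02), which was -0.14 without the 2 farthest animals and 0.08 within slide 2, but 0.58 as deviations from the group means (permutation p = 0.0453, adjusted p = 0.0679, rho 0.52).

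The receptors read the fragments that complement releases. C5AR1, the receptor of the C5a fragment that draws neutrophils and macrophages, lay at -6.98, -6.77, -7.24 and -7.73 in YF and at -6.55, -6.33, -6.96 and -6.46 in OF. Of the 4 OF, 3 lay above all YF, and OF 0245 was within their range. The difference was 0.60 with a standard error of 0.24 (exact permutation p = 0.0571), and it was 0.57 without OF 2258, 0.27 under normexp, 0.91 within slide 2 and 0.05 on slide 1, where 1 OF stood beside 2 YF. C5AR1 entered the test only through OF, so its direction was favoured by the filter. C3AR1, the receptor of the C3a fragment, differed by -0.12 (standard error 0.18, and 0.00 without OF 2258), and VSIG4, a macrophage receptor that binds C3 fragments, by -0.25 (standard error 0.14, and -0.07 within slide 2), with OF between -3.93 and -3.62 and YF between -3.70 and -3.39.

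The regulators protect host cells, and CD59, which stops the last step of pore formation, was 1 of the 2 members with groups apart. CD59 lay at -0.35, -0.08, -0.13 and -0.04 in YF and at -0.48, -0.70, -1.33 and -0.97 in OF. All OF were below all YF, OF 0233 by the least and OF 0245 by the most. The difference was -0.72 with a standard error of 0.20, so that the level was 1.65-fold higher in YF (exact permutation p = 0.0286, the smallest that 4 against 4 animals give, adjusted p = 0.999 in limma). Its 2 probes gave -0.73 and -0.71. Neither of the 2 animals high in smooth muscle genes carried the difference, which was -0.68 without OF 2258 and -0.75 without OF 0234 as well, and it was -1.22 on slide 1 and -0.52 within slide 2. The groups were also apart under quantile normalization, normexp and median centring, with the brightest probe and with the slide as a block, while fits on fewer animals cannot undo such a separation. The contemporary cows 1068, 1128, 1129 and 1111 lay at -2.04, 0.12, -0.98 and -0.11, on both sides of OF and YF, and thus span more than the difference between them.

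The other regulators did not separate the groups. CD46 and CD55, which disarm convertases on the cell surface, differed by -0.13 (standard error 0.23) and 0.02 (standard error 0.43, and -0.31 without YF 1069). CFI, the protease that cuts C3b and C4b, differed by 0.02, a sign that turned with the brightest probe and without OF 0233, OF 0245, YF 1069 or YF 1127 (-0.16 without YF 1069), and SERPING1, the inhibitor of C1, by 0.16 (standard error 0.31). Without OF 2258 the difference was 0.08 for CD46 and -0.04 for SERPING1, so both signs turned. CLU, a secreted chaperone that binds the forming pore, lay at 3.90, 4.38, 4.92 and 4.35 in YF and at 4.89, 4.79, 4.84 and 4.00 in OF. Thus 3 OF were close together and OF 2258 was far below them. The difference of 0.24 was 0.08 without YF 1069, 0.45 without OF 2258 and 0.42 without YF 1072.

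The procoagulant members were F3 (tissue factor, which starts clotting), F5 (the cofactor with which activated factor X makes thrombin), F13A1 (the enzyme that crosslinks fibrin) and VWF (which ties platelets to the vessel wall). F3 lay at 2.33, 2.33, 2.16 and 2.51 in YF and at 2.21, 1.97, 2.87 and 1.33 in OF. The YF were close together, OF 0245 lay above them, and OF 0234 and OF 2258 lay below them. Its difference of -0.24 was 0.01 without OF 2258 and -0.50 without OF 0245, and it was 0.62 on slide 1 and -0.59 on slide 2. F5 differed by -0.70 (standard error 0.58) and by -0.14 without OF 2258, which stood at -3.86 where the other 7 animals were between -2.45 and -0.93. F13A1 differed by -0.13, a sign that turned under normexp and with the brightest probe. VWF differed by 0.24 (standard error 0.28) and lay between 1.07 and 1.68 in OF, and YF 1127, at 0.38, was below all other animals, and without it the difference was -0.03. VWF is made by endothelium and followed the mean of the 10 endothelial genes, with r = 0.81 over 12 animals (permutation p = 0.00175, adjusted p = 0.00394, rho 0.85), 0.74 without the 2 farthest animals, 0.81 within slide 2 and 0.73 as deviations from the group means. The relation of F13A1 with the macrophage genes was r = 0.38 (permutation p = 0.229, adjusted p = 0.295, rho 0.28), which was 0.02 without the 2 farthest animals, 0.46 within slide 2 and 0.14 as deviations from the group means. F2R, the main thrombin receptor, differed by 0.06 (standard error 0.17), and by -0.02 without OF 2258.

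The anticoagulants limit thrombin and its partners. PROS1 (protein S, a cofactor of activated protein C) lay at -0.08, -0.88, -0.77 and -1.24 in YF and at -1.08, -1.32, -1.47 and -0.94 in OF, a difference of -0.46 with a standard error of 0.25 (exact permutation p = 0.114). The 4 OF were all below 3 of the YF, and YF 1127 was within their range, and without YF 1069 the difference was -0.24. THBD (thrombomodulin, which turns thrombin to the activation of protein C) differed by 0.38 (standard error 0.33) and by 0.07 without OF 2258. Its r with the endothelial genes was 0.25 (permutation p = 0.391, adjusted p = 0.440, rho 0.05), which was -0.04 without the 2 farthest animals, 0.28 within slide 2 and 0.27 as deviations from the group means. TFPI2, an inhibitor of serine proteases in the matrix, lay at 1.83, 2.02, 1.89 and 2.22 in YF and at 1.94, 1.66, 1.96 and 3.51 in OF. Apart from OF 2258 all animals were close together, and the difference of 0.28 became -0.14 without it.

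Fibrinolysis was represented by 2 plasminogen activators, a receptor and an inhibitor, and PLAT, the tissue-type activator, was the other member with groups apart. PLAT lay at 4.86, 4.73, 4.32 and 4.28 in YF and at 4.00, 4.10, 4.24 and 1.89 in OF. All OF were below all YF, 3 of them by little and OF 2258 by far. The difference was -0.99 with a standard error of 0.50, so that the level was 1.98-fold higher in YF (exact permutation p = 0.0286, adjusted p = 0.999 in limma), and it was -0.43 without OF 2258. Its 2 probes gave -0.98 and -1.0, and the groups were no longer apart under median centring and after the slide was taken as a block. SERPINE2 (protease nexin-1, an inhibitor of thrombin and of plasminogen activators) lay at -0.08, 0.22, 1.02 and 0.43 in YF and at 0.82, -0.77, -0.36 and -2.91 in OF. OF 0233 was within the range of YF and the other 3 OF were below it. The difference was -1.20 with a standard error of 0.69 (exact permutation p = 0.171), -0.50 without OF 2258 and -0.17 without OF 0234 as well. PLAU, the urokinase-type activator, and its receptor PLAUR differed by 0.13 (standard error 0.37) and -0.17 (standard error 0.19, and -0.04 without YF 1069). OF 2258 was the highest of the 8 animals for PLAU at 0.52, and without it the difference of PLAU was -0.21.

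**Figure D3:**
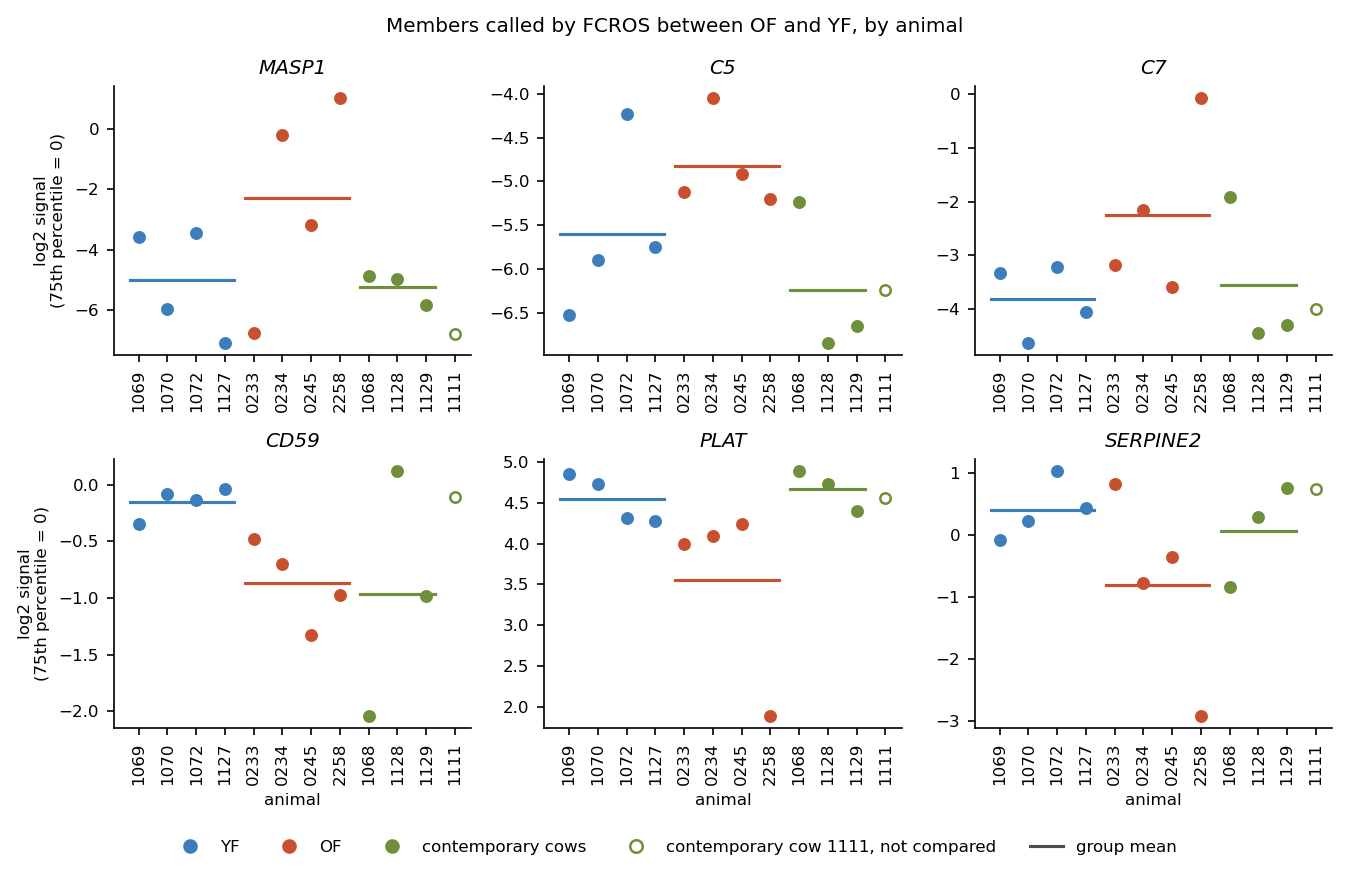
Log2 signal, where 0 is the 75th percentile of the array, of the 6 members called by FCROS in each animal; lines are group means, and the open point is contemporary cow 1111, which is in no mean. For CD59 all OF lie below all YF, for PLAT the 3 other OF lie between 4.00 and 4.24 and OF 2258 at 1.89, and for MASP1 and C7 the high OF are 0234 and 2258.

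OF 2258, the animal with the lowest PLAT and SERPINE2, had the lowest epithelial genes, and YF 1069, second lowest for these, had PLAT at 4.86, the highest of YF and OF, and SERPINE2 at -0.08, the lowest of YF. The mean log2 signal of the epithelial genes was 0.27 in YF 1069 and -0.67 in OF 2258, and the part of tissue composition in the difference was not tested. When both OF high in smooth muscle genes were left out, FCROS called 1 of the 36 members, CD59, beside 4.86% of all transcripts. Without OF 2258 alone it called 4, MASP1, C5, C7 and CD59 (4.52% of all transcripts). Of the 6, MASP1 and C7 were called whichever single animal was left out. PLAT was not called without OF 0233, OF 2258, YF 1069 or YF 1070, SERPINE2 not without OF 2258 or YF 1072, C5 not without OF 0234, YF 1069, YF 1070 or YF 1127, and CD59 not without OF 0245. C5 was also not called with no trimming, under normexp and under quantile normalization.

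The slides were not balanced, with 1 OF and 2 YF on slide 1 and 3 OF and 2 YF on slide 2. The difference of MASP1 was 1.53 on slide 1 and 3.33 on slide 2, that of C7 0.33 and 1.89, and that of C5 0.15 and 1.34. PLAT had -0.28 and -1.24, and SERPINE2 -0.99 and -1.12. All 6 members called by FCROS had 1 sign on both slides, and OF 0234 and OF 2258, the animals high in smooth muscle genes, were both on slide 2.

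**Figure D4:**
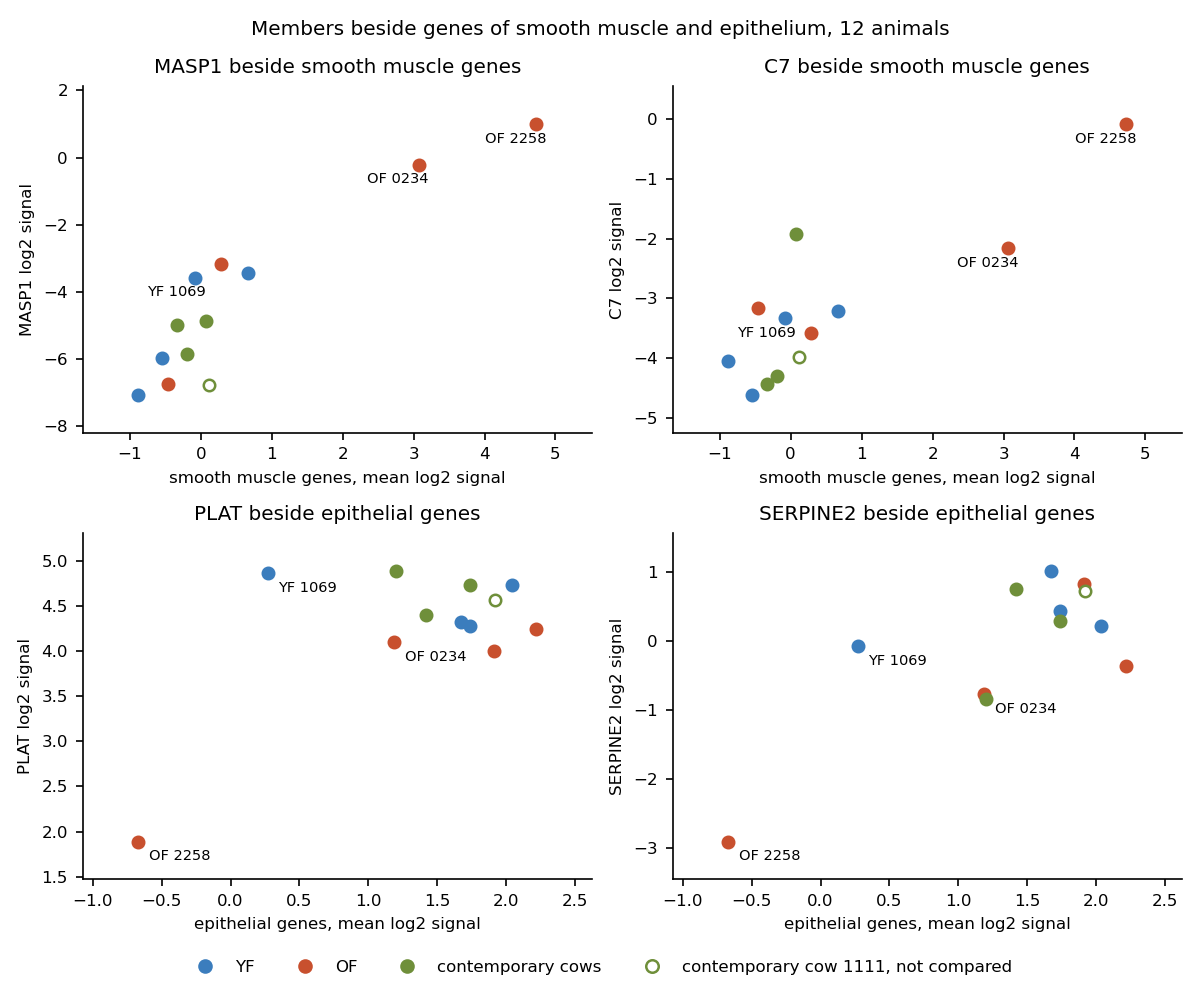
Log2 signal of MASP1 and C7 against the mean log2 signal of 11 smooth muscle genes, and of PLAT and SERPINE2 against that of 8 epithelial genes, with 1 point for each of 12 animals. OF 0234 and OF 2258 lie to the right of all others in the upper plots, and OF 2258 lies at the lower left in both lower plots.

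Of 58 other genes of the same cascades 55 had probes and 33 were tested between OF and YF. Limma called 0 of them at an adjusted p of 0.05 and 0 at an unadjusted p of 0.05 (0% and 2.42% of all transcripts), the groups were apart for 0 (1.53%), and FCROS, which took all with probes, called 5 of the 55 (4.94%), 3 higher (2.88%) and 2 lower in OF (2.06%). The median difference of the 33 was 0.01, with 17 higher and 16 lower. Among the 33 the largest positive differences were those of A2M, a broad protease inhibitor (1.92, standard error 0.96), C4BPA, the regulator of C4b (1.23, standard error 0.57), and SERPIND1, an inhibitor of thrombin (0.66, standard error 0.44). A2M lay at -3.21, -2.92, -2.41 and -3.86 in YF and at -2.81, -0.42, -3.06 and 1.56 in OF. OF 2258 and OF 0234 were the 2 highest, as for MASP1, and without them the difference was 0.17. It was -0.39 on slide 1 and 2.98 on slide 2. SERPIND1 lay at -5.27, -4.22, -3.93 and -4.13 in YF and at -3.18, -4.14, -2.93 and -4.69 in OF, so that 2 OF were within the range of YF. The difference of C4BPA was 1.34 without OF 2258 and OF 0234, with OF at -3.54, -4.27, -5.53 and -5.25 and YF at -6.12, -5.21, -5.06 and -7.12, so that 2 OF were above all YF. C4BPA was above background in 3 YF and 4 OF and so entered through OF, where it was higher, and its difference was -0.39 on slide 1 and 2.27 on slide 2.

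The largest negative differences among the 33 were those of ADAMTS13, the protease that trims VWF (-1.53, standard error 0.72), F10, the protease that makes thrombin (-0.72, standard error 0.38), and COLEC10, a lectin of the complement system (-0.70, standard error 0.44). ADAMTS13 lay at 0.66, -0.03, -1.08 and -0.84 in YF and at -1.33, -0.55, -1.53 and -4.01 in OF. OF 0234 was within the range of YF, and the difference was -0.81 without OF 2258, which also took F10 to -0.36 and COLEC10 to -0.26. COLEC10 was above background in 4 YF and 2 OF and so entered through YF, where it was higher. Among the genes of plasma proteins C9, C4BPB, MBL2, VTN, F11, SERPINA10, PLG and CPB2 were well above background in none of the 11 animals compared. PLG encodes plasminogen, so RNA for the substrate of PLAT and PLAU was not measured above background in this tissue. The 5 hepatocyte genes had a mean between -4.59 and -3.41 over 12 animals, with APOA1 the most abundant, and of them ALB was well above background on 4 arrays and APOB on 1. Their mean in the contemporary cows compared was 0.59 above YF and 0.48 above OF. TTR lay at -0.32, -2.1 and 0.87 in these cows and between -5.09 and -2.35 in YF and OF. APOA1 lay at 1.48, 1.6 and 2.21 in these cows and at no more than 1.24 in YF and OF. The rest of the list went the other way, since ALB, TF and APOB each had a lower mean in these cows than in YF and in OF.

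The 3 remaining contemporary cows show how far other cows differ from either group, in comparisons of 3 against 4 animals that share samples with each other and with that of OF and YF. Against YF, limma called 0 of 35 members and 0 of 19993 transcripts (0%) at an adjusted p of 0.05, and 2 members and 606 transcripts (3.03%) at an unadjusted p of 0.05. The groups were apart for 3 members beside 765 of all transcripts (3.83%). All 3, CFD, VSIG4 and VWF, were higher in the contemporary cows, as 302 of all transcripts were (1.51%), and 0 were lower, beside 463 (2.32%). The median difference was 0.18 over the members and -0.02 over all transcripts, and 23 of 35 members were higher in the contemporary cows, beside 45.4% of all transcripts. FCROS was not run on the contemporary cows.

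CFD, the protease that activates factor B, lay at 2.06, 1.83 and 2.13 in the contemporary cows 1068, 1128 and 1129 and at no more than 1.41 in YF. The difference was 0.75 with a standard error of 0.17, or 1.69-fold (exact permutation p = 0.0286, the smallest that 3 against 4 animals give, adjusted p = 0.831 in limma), and 0.89 within slide 2. VSIG4 lay at -3.02, -3.01 and -3.05, above all 8 OF and YF, with a difference from YF of 0.51 (standard error 0.16, exact permutation p = 0.0286, adjusted p = 1 in limma) and 0.66 within slide 2. Animal 1111, which is not compared, was at -3.39, level with the highest YF. VWF lay at 1.91, 1.63 and 1.87, a difference of 0.60 (standard error 0.30, exact permutation p = 0.0857) and 0.88 within slide 2, with YF 1127 far below the other YF at 0.38. The 10 endothelial genes, ROBO4 the most abundant, had summed signals of 27.8, 14.3 and 19 in the same cows, 19.1 in animal 1111, 19.7, 15.8, 15.6 and 9.52 in YF and 14.8, 14.3, 15.9 and 15.3 in OF, so that YF 1127 was lowest for them too, and their part in the difference of VWF was not tested. What was read for CFD and VWF is shown by 1 probe of each, whose OF minus YF differences were 0.41 and 0.20.
CFD probe 1: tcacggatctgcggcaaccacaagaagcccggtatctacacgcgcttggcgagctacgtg
VWF probe 1: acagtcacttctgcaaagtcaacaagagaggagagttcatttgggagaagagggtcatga

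Against OF, limma called 0 of 35 members and 0 of 19914 transcripts (0%) at an adjusted p of 0.05, and 5 members and 911 transcripts (4.57%) at an unadjusted p of 0.05. The groups were apart for 6 members beside 1153 of all transcripts (5.79%), with C1S, VSIG4, PROS1, PLAUR and PLAT higher in the contemporary cows (2.86% of all transcripts) and C5 lower (2.93%). PROS1 lay at -0.49, 0.05 and -0.17 in the contemporary cows, above OF at no more than -0.94, with a difference of 1.0 (standard error 0.21, exact permutation p = 0.0286, adjusted p = 0.677 in limma) and 0.91 within slide 2, which held all 3 contemporary cows compared. YF 1069 reached the same level, so PROS1 did not separate contemporary cows from YF. C5 lay at -5.24, -6.84 and -6.65, with a difference of -1.42 from OF (standard error 0.45, exact permutation p = 0.0286, adjusted p = 0.912 in limma) and -1.45 within slide 2. The difference of VSIG4 from OF was 0.76 (standard error 0.15) and that of C1S 0.65 (standard error 0.22), and PLAT differed by 1.12 (standard error 0.57), with OF 2258 at 1.89 and the other OF at 4.00 or more. The contemporary mean was 0.44 above OF for stromal genes and 0.29 above for macrophage, endothelial and epithelial genes each. For smooth muscle genes it was 2.05 below. The epithelial means were 1.91, 1.19, 2.22 and -0.67 in OF and 1.2, 1.74 and 1.42 in the contemporary cows, so that only OF 2258 lay far below these cows. The smooth muscle means were -0.46, 3.07, 0.29 and 4.73 in OF and 0.08, -0.34 and -0.19 in the contemporary cows. Only OF 0234 and OF 2258 lay far above these cows. The part of these tissues in the differences was not tested. The median difference was 0.36 over the members and -0.04 over all transcripts, with 26 of 35 higher in the contemporary cows, beside 43.6% of all transcripts.

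**Figure D5:**
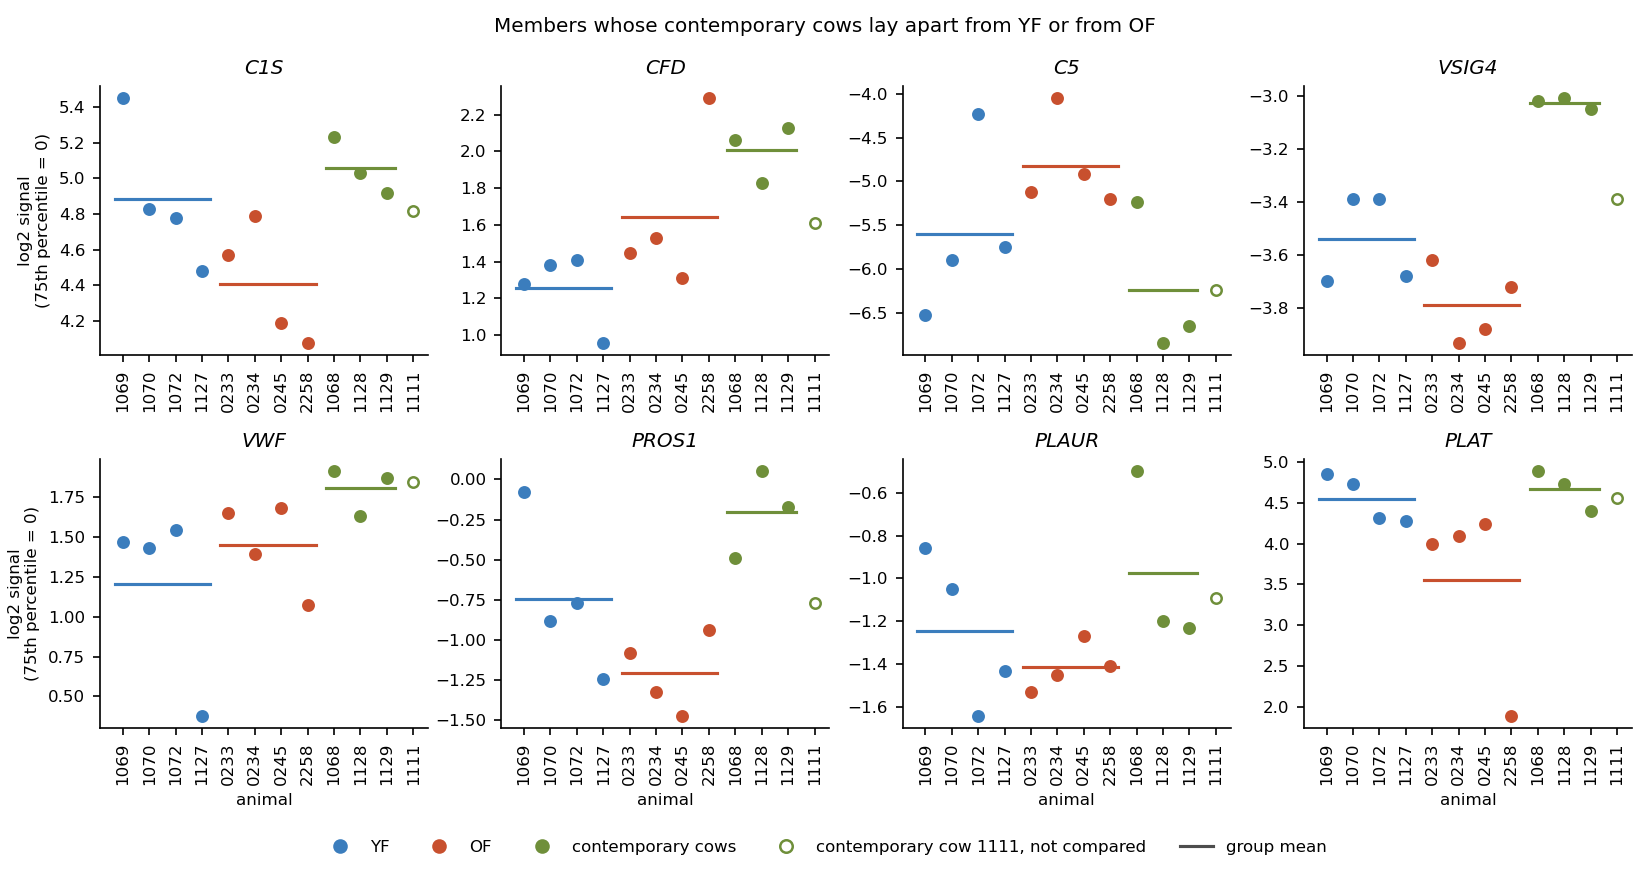
Log2 signal, where 0 is the 75th percentile of the array, of the 8 members for which all 3 contemporary cows compared lay on 1 side of all YF or of all OF; lines are group means, and the open point is contemporary cow 1111, which is in no mean. VSIG4 lies between -3.05 and -3.01 in the 3 cows, above all OF and YF, and CFD lies above all YF but below OF 2258.

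Blood and tissue genes were read beside the members on the same arrays. The mean log2 signal of 4 erythrocyte genes, with HBA the most abundant, lay between -2.70 and -2.19 in YF, between -2.70 and -2.14 in OF, and at -1.42, -2.34 and -1.24 in the contemporary cows. That of 4 platelet genes (of 6 listed, ITGA2B the most abundant) lay between -5.48 and -4.32 in YF, between -5.42 and -4.53 in OF, and at -4.35, -4.80 and -3.80 in the contemporary cows. For 7 granulocyte genes, with LTF the most abundant, it lay between -2.56 and -1.32 in YF, between -2.37 and -1.35 in OF, and at -1.58, -2.06 and -1.09 in the contemporary cows. The contemporary means were thus 0.73, 0.63 and 0.49 above YF and 0.69, 0.71 and 0.23 above OF for erythrocyte, platelet and granulocyte genes. Of the platelet genes PPBP was well above background on 4 arrays and GP6 on 8, and of the granulocyte genes MPO on 9. The uterine genes ESR1, PGR, HOXA10, HOXA11 and MSX1 were above background in all animals. The mean of this list lay between 0.13 and 1.04 in each animal, which checks a uterine origin only. MSX1 was at 2.79 in OF 2258 and 2.89 in YF 1069, and between 4.52 and 5.71 in the other animals. The part of blood in the levels of these members was not tested.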

How the data were processed

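For each array the authors deposited the processed intensity of every spot, corrected for background by Agilent Feature Extraction 10.7.3.1 and not normalized between arrays. Values are log2 intensities less each array's own 75th percentile. Control spots (1319 an array) and 66 probes with an outlier flag were left out, and spots of a probe, then probes of a transcript, were averaged, giving 26323 transcripts. A gene's value is that of its transcript with the highest mean. Tests covered transcripts of which 1 probe passed Feature Extraction's background flag throughout 1 of the groups compared. They were run with limma 3.58.1 under R 4.3.3 (two-sided, Benjamini-Hochberg at 0.05), after tests on simulated data. FCROS was coded from its description with 16 pairwise ratios, a trim of 0.25 at each end, f-values of 0.025 and 0.975 and a fold of 1.5. Exact permutation tests are two-sided, and correlations used 100000 permutations in Python 3.11.15.

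Named are all members, and of the wider list the genes with OF and YF apart (0) and the 3 tested with the largest difference between them each way. 2 genes of the wider list are not reported here, and counts over that list leave them out. The members and all gene lists (the wider cascades, and smooth muscle, macrophage, endothelial, platelet, erythrocyte, granulocyte, epithelial, stromal, hepatocyte and uterine genes) were chosen with earlier results of these data known. Alternatives were quantile normalization, normexp (offset 50), median centring, the brightest probe, no filter, dim probes left out or no trimming in FCROS, the slide as a block, 3 groups in 1 fit, cow 1111 included, and each animal left out. Another pair, without both OF high in smooth muscle genes and within slide 2, were chosen after seeing the data. Symbols come from the array files, and 3 transcripts with a list symbol whose RefSeq accession (ARS-UCD2.0) named another gene were left out.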

Additional observations from a re-analysis of the deposited data

Results flagged for a closer look

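In each group of 4 animals the distance of the extreme animal from its nearest neighbour was divided by the group's range, and 6 of 108 groups stood out (a ratio above Dixon's critical value), where chance flags about 1 in 20 groups. Of the 6 animals named, 4 are OF 2258. CFP was -4.95 in OF 2258, where the other OF lay between -3.88 and -3.67. CLU was 4.0 in OF 2258 and between 4.79 and 4.89 in the other OF. TFPI2 was 3.51 in OF 2258 and between 1.66 and 1.96 in the other OF. PLAT was 1.89 in OF 2258 and between 4.00 and 4.24 in the other OF. VWF was 0.38 in YF 1127 and between 1.43 and 1.54 in the other YF. VSIG4 was -3.39 in contemporary cow 1111, the animal the authors left out, and between -3.05 and -3.01 in the other contemporary cows.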

How the results depend on the processing

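Limma called 0 members at an adjusted p of 0.05 in each of the 3 comparisons under every alternative run for it (within slide 2, and without both OF high in smooth muscle genes, only OF and YF were fitted), and between OF and YF also 0 of all transcripts, with between 386 and 959 of them under an unadjusted p of 0.05, and 0 genes of the wider list. Members with OF and YF apart numbered 2 (1.53% of all transcripts), 3 under normexp (2.58%), 1 with the slide as a block (4.61%), 7 within slide 2 (14.2%), where 3 OF meet 2 YF, 4 without both OF high in smooth muscle genes (12.1%) and between 2 and 5 when 1 animal was left out (between 2.88% and 5.81%). CD59 was among them each time, as it had to be where animals were only left out. FCROS called 6 members (4.94%), 7 with the brightest probe (5.42%), 5, all but C5, with no trimming (3.99%), normexp (2.08%) or quantile normalization (4.95%), 1 without both OF high in smooth muscle genes (4.86%), and between 4 and 8 when 1 animal was left out (between 4.52% and 5.91%). The median difference of the members stayed between -0.23 and 0. Of 595 recomputed differences of single members 592 moved by less than 1 SD between animals of a group and 3 by more (VSIG4 under normexp, -0.08, and within slide 2, -0.07, and CD46 without both high OF, 0.23). That SD is wide for some, as without both high OF MASP1 went from 2.72 to 0.05 and SERPINE2 from -1.20 to -0.17. Of the 6 called by FCROS 0 changed sign. Differences of 17 of the 35 members kept their sign in every recomputed setting. Slide 1 alone was not among these settings, and there CFD (-0.08) and PLAUR (0.08) had the other sign.

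The correlations among C1q chains and that of VWF with endothelial genes held by Pearson's r under every alternative tried for them. C1R with C1S no longer passed within slide 2 (r = 0.73) and without the 2 farthest animals (0.54), C1QA with macrophage genes passed by r without them (0.71), and THBD with endothelial genes (-0.04) and C7 with stromal genes (-0.14) changed sign without them, which leaves 10 animals. By rho, C1QA with macrophage genes also passed over 12 animals (adjusted permutation p = 0.0217), but not without cow 1111 (0.0662). As deviations from group means C7 with stromal genes had r = 0.58 in place of 0.20, and C1QA with macrophage genes 0.38 in place of 0.60. The cause of the other changes was not tested. Signal over background limits C6, C5AR1 and the dimmer probes of C5, CFP and F13A1. The dimmer probes of CFP and F13A1 gave -0.53 and -0.38, where the brighter ones gave 0.03 and 0.12. No paired analysis was possible because no animal is in 2 groups.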
